A study of Bombus lucorum with 81 samples.

Results

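The 7 genes described here are those whose product is named protein lethal(2)essential for life, a family of small heat shock proteins. They were taken by gene identifier from a count table of 10581 protein-coding genes, and all 7 were found there. Small heat shock proteins carry an alpha-crystallin domain and work as chaperones without ATP. They bind proteins that begin to unfold and hold them soluble until chaperones such as Hsp70 and its DnaJ partners refold them. The family was named after a Drosophila locus, and insects often carry several such genes side by side. Many small heat shock genes are induced by heat in insects, and in Drosophila the gene that gave the family its name is also expressed in muscle.

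The genes were measured in 81 wild-caught Bombus lucorum workers, each sequenced as its own RNA-seq library from thorax and abdomen, with head, legs, wings and gut taken off. Highland bees numbered 26 from 5 sites between 1579 and 1930 m, mid-elevation bees 25 from 5 sites between 1140 and 1423 m, and lowland bees 30 from 6 sites between 641 and 987 m. Within the lowland, 17 bees were caught at a high sampling temperature of 20.6 to 23.5 °C and 13 at a low one of 14.8 to 18.5 °C, and over all belts 45 bees came from 9 grazed sites and 36 from 7 ungrazed sites. Highland sites were grazed at 1 of 5, mid-elevation sites at 5 of 5 and lowland sites at 3 of 6, and bees of 1 site may share a colony. Estimated counts per bee summed to between 15700759 and 33784279.

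Muscle and fat body markers were found in every bee, whereas gut-type markers ranged from nearly absent to abundant. The summed level of 12 muscle genes (titin, twitchin, troponins, tropomyosins) ranged from 2055 to 42791 CPM (each count scaled to a common library size after TMM, a correction for differences in composition between libraries), and that of 3 fat body genes (vitellogenins, hexamerin) from 8.37 to 4559 CPM. Although the gut had been taken out, 6 genes of gut type (peritrophins, chymotrypsins) summed to a median of 28198 CPM in highland bees, 18609 CPM in mid-elevation bees and 2.98 CPM in lowland bees, with ranges that overlapped almost completely. Over all bees that sum ran from 0.514 to 71387 CPM.

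Of the 7 genes, 5 stood next to each other. On 1 sequence of the B. terrestris assembly Bter_1.0, to which the reads had been aligned, LOC105666325 (1600755 to 1601699, minus strand), LOC110119847 (1604517 to 1605869, minus), LOC100649836 (1607349 to 1607932, minus), LOC100651433 (1610625 to 1611662, plus) and LOC105666322 (1612685 to 1613561, minus) lay within 12807 bases. No other gene of the table fell between them, and the gaps ran from 1022 to 2817 bases. LOC105667104 (10071276 to 10082956, plus) lay on the same sequence 8457714 bases further on. LOC100652068 (4767585 to 4769441, plus) lay on another sequence. None of the 7 overlapped another gene. LOC110119847 is annotated as a like protein and LOC100649836 as a low quality protein, that is, a gene model corrected against the assembly.

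Related genes can share reads, which the authors had counted as fractions. A count that was not whole, the mark of shared reads, occurred in 92.6% of bees for LOC100652068, in 46.9% for LOC110119847, in 45.7% each for LOC105666325 and LOC105667104 and in 29.6% for LOC105666322. It occurred in 3.7% of bees for LOC100649836 and in none for LOC100651433. How much of a level came from shared reads was not tested.

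The members differed in level by orders of magnitude. Per kilobase of exon, LOC100652068 had a median of 5135 CPM per kb over the 81 bees, followed by LOC105666325 with 188.9, LOC105667104 with 134.0, LOC105666322 with 45.2, LOC100651433 with 27.1, LOC110119847 with 1.30 and LOC100649836 with 0.458 CPM per kb. LOC100652068 stood above all others in 81 of 81 bees. LOC100651433 stood above LOC110119847 in 81 of 81 bees too, LOC110119847 above LOC100649836 in 74 and LOC105667104 above LOC105666322 in 68. The order was least regular for LOC105666325 above LOC105667104, in 56 of 81 bees, and LOC105666322 above LOC100651433, in 59. Together the 7 genes summed to between 0.306% and 2.28% of the scaled library size of a bee, with a median of 0.735%, and the median share of LOC100652068 in this sum was 91.4%.

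**Figure D1:**
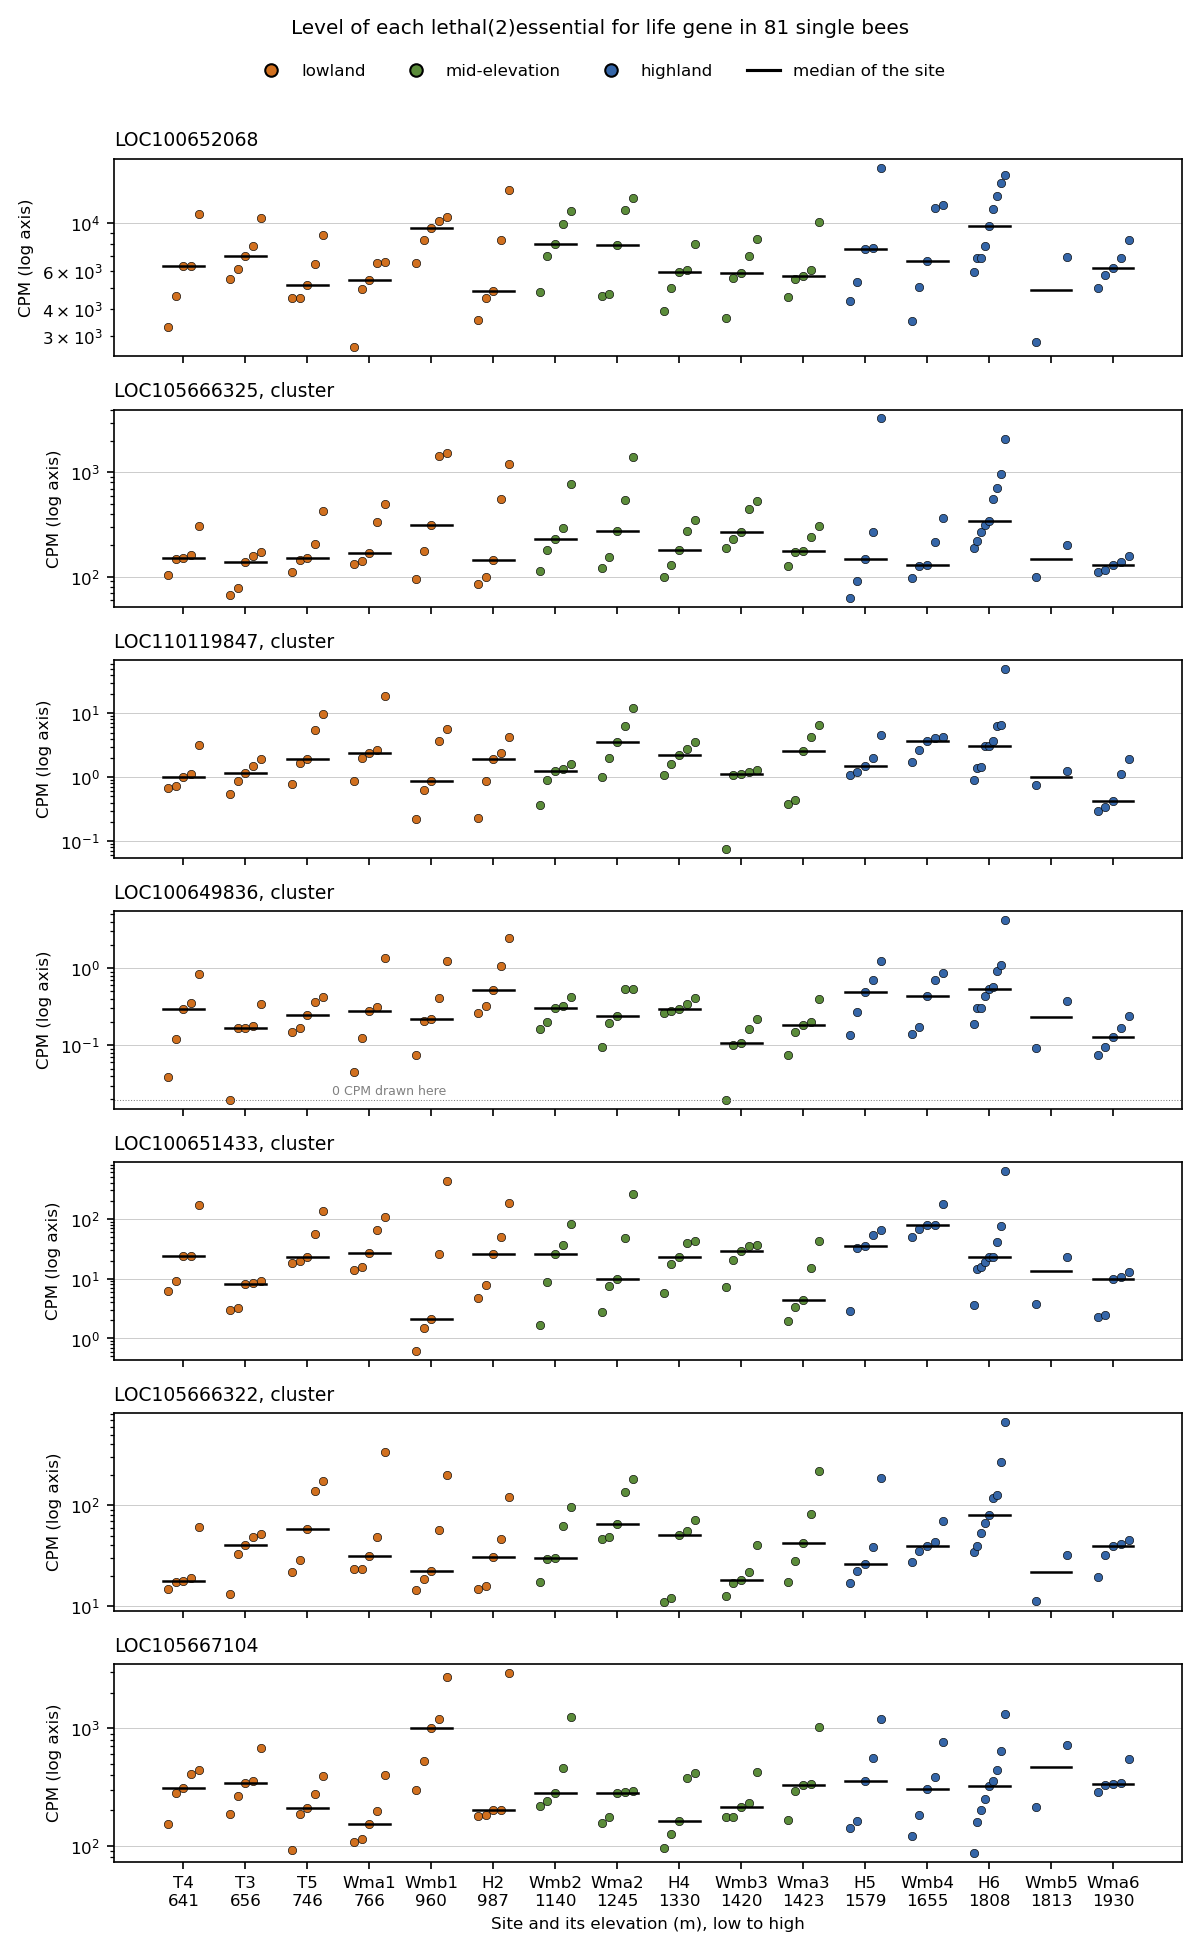
Level of the 7 genes in single bees, in CPM on log axes, by site in order of elevation (m). Each point is 1 bee, bees of a site are sorted by level, horizontal lines are site medians and colours mark belts. LOC100652068 stayed within 2661 to 18030 CPM, whereas LOC100651433 ranged from 0.620 to 625.6 CPM with high bees in every belt.

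LOC100652068, the most abundant member, varied less than the other 6 but more than the median gene. It had between 2661 and 18030 CPM over all bees, a 6.78-fold range, and its SD of 0.585 on the log2 CPM scale lay at the 62.3rd percentile of 9475 genes tested, whose median SD was 0.472. Its lowest, median and highest levels were 2800, 6919 and 18030 CPM in highland bees, 3639, 6028 and 13042 CPM in mid-elevation bees and 2661, 6394 and 14209 CPM in lowland bees. The 3 belts overlapped over nearly their whole ranges.

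The other 6 members varied far more between bees than most genes did. Their SD of log2 CPM ran from 1.02 for LOC100649836 to 1.97 for LOC100651433, which placed them between the 90.1st and the 98.1st percentile of the genes tested. Most of that spread lay among bees of the same site, where the SD was still 0.924 to 1.87. The paper reports a wide range of RNA integrity among the samples and had no information on the age of the bees. The part of either in the spread was not tested. LOC100651433 was the most variable, with a 1008-fold range, and its highest 8 bees held 54.5% of its summed CPM. For LOC110119847 a single bee, bee 8 of site H6, held 19.5% of the summed CPM, against a median of 2.56% in the highest bee over all genes tested.

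LOC105666325, the most abundant gene of the cluster, had 62.2, 194.7 and 3288 CPM (lowest, median and highest) in highland bees, 98.7, 230.0 and 1391 CPM in mid-elevation bees and 67.4, 154.5 and 1548 CPM in lowland bees. Its highest bee, bee 4 of site H5, also had the highest LOC100652068. LOC105666322, at the other end of the cluster, had 11.2, 39.6 and 663.4 CPM in highland bees, 11.1, 42.5 and 218.1 CPM in mid-elevation bees and 13.2, 31.3 and 335.8 CPM in lowland bees. In both genes a few bees of each belt stood far above the median of that belt, and the belts overlapped.

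LOC100651433 had 2.29, 23.1 and 625.6 CPM in highland bees, 1.68, 20.8 and 262.8 CPM in mid-elevation bees and 0.620, 18.99 and 429.2 CPM in lowland bees. LOC110119847 had 0.298, 1.81 and 48.5 CPM in highland bees, 0.0751, 1.35 and 12.3 CPM in mid-elevation bees and 0.222, 1.59 and 18.9 CPM in lowland bees. LOC100649836 was hardly detected, with a median estimated count of 7 per bee and 2 bees at 0, which allows up to 0.120 CPM in bee 1 of site T3 and 0.105 CPM in bee 5 of site Wmb3 (3 counts over the total count of the bee, without TMM, counting error only). Its levels were 0.0746, 0.343 and 4.15 CPM in highland bees, 0, 0.222 and 0.536 CPM in mid-elevation bees and 0, 0.268 and 2.47 CPM in lowland bees. The belts overlapped in these 3 genes too. In each, the highest mid-elevation bee lay below the highest bee of either other belt. Mid-elevation bees were still among the 8 highest for LOC110119847 and LOC100651433, such as bee 5 of site Wma2 in both.

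LOC105667104, the distant member, had 87.2, 333.9 and 1327 CPM in highland bees, 94.8, 280.4 and 1250 CPM in mid-elevation bees and 92.3, 278.8 and 2950 CPM in lowland bees. Its highest bees were bee 5 of site H2 with 2950 CPM and bee 5 of site Wmb1 with 2710 CPM, both from the lowland. The next bee in rank, bee 9 of the highland site H6, had 1327 CPM.

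To ask whether the family followed elevation, the belts were compared in 1 model over all bees. None of the 7 members passed the threshold (an adjusted p below 0.05 together with a log2 fold change of 0.5 or more in either direction) in any of the 3 comparisons of belts with the quasi-likelihood test of edgeR, nor with DESeq2. Of all genes tested, 0.686% were called between highland and lowland, 0.211% between highland and mid-elevation and 0.369% between mid-elevation and lowland. The belts share bees between the comparisons.

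Between highland and lowland bees, 6 of 7 members had a log2 fold change above 0, from 0.27 for LOC100651433 to 0.65 for LOC110119847 (SE 0.410, edgeR adjusted p = 0.426), and LOC105667104 had -0.28 (SE 0.301, edgeR adjusted p = 0.674). The median over the members was 0.44, against 0.01 over all genes tested, and no member had an unadjusted p under 0.05. Site H6 held 9 of the 26 highland bees. Without it, 4 of the 7 members changed sign, and LOC110119847 had -0.47 and LOC105666322 -0.44 in place of 0.53. On site means, with 1 value per site, the exact two-sided permutation p of the 5 highland against the 6 lowland sites lay between 0.667 and 0.935 for the 7 genes.

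LOC100652068 had the narrowest interval. Its highland against lowland difference was 0.29 (SE 0.162, edgeR adjusted p = 0.344), with a 95% interval of -0.03 to 0.62. For LOC100651433 the interval ran from -0.75 to 1.30.

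Between highland and mid-elevation bees all 7 log2 fold changes were above 0, from 0.27 to 1.19, with a median of 0.57 against 0.01 over all genes tested. The largest, LOC100649836 at 1.19 (SE 0.364), had an unadjusted p of 0.00156 and an edgeR adjusted p of 0.114. It was the 1 member with an unadjusted p under 0.05. This gene, with its median count of 7, passed the threshold with grazing as a covariate (1.76, edgeR adjusted p = 0.0447) and without highland site Wma6 (1.43, edgeR adjusted p = 0.0411). All mid-elevation sites but only 1 highland site were grazed, so that belt and grazing are largely confounded in this comparison. Without site H6, LOC105666322 and LOC110119847 had -0.40 and -0.33. On site means the exact permutation p of the 5 highland against the 5 mid-elevation sites lay between 0.127 and 0.976.

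Between mid-elevation and lowland bees, LOC100649836 had -0.75 (SE 0.356, edgeR adjusted p = 0.292), LOC105667104 -0.61 (SE 0.306, edgeR adjusted p = 0.314) and LOC100651433 -0.60 (SE 0.527, edgeR adjusted p = 0.596). The remaining 4 members lay between -0.13 and 0.02. LOC100649836 was the 1 member with an unadjusted p under 0.05, at 0.0384. Exact permutation p over the 5 mid-elevation and 6 lowland sites lay between 0.394 and 0.948.

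Site means showed little relation to elevation. Over the 16 sites, Pearson r of mean log2 CPM with elevation ran from -0.05 for LOC110119847 to 0.13 for LOC105667104, and Spearman rho from -0.05 to 0.30, given as a description. LOC110119847 was highest at site H6 at 1808 m, with a mean log2 CPM of 1.93, and lowest at site Wma6 at 1930 m with -0.48, both highland sites.

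**Figure D2:**
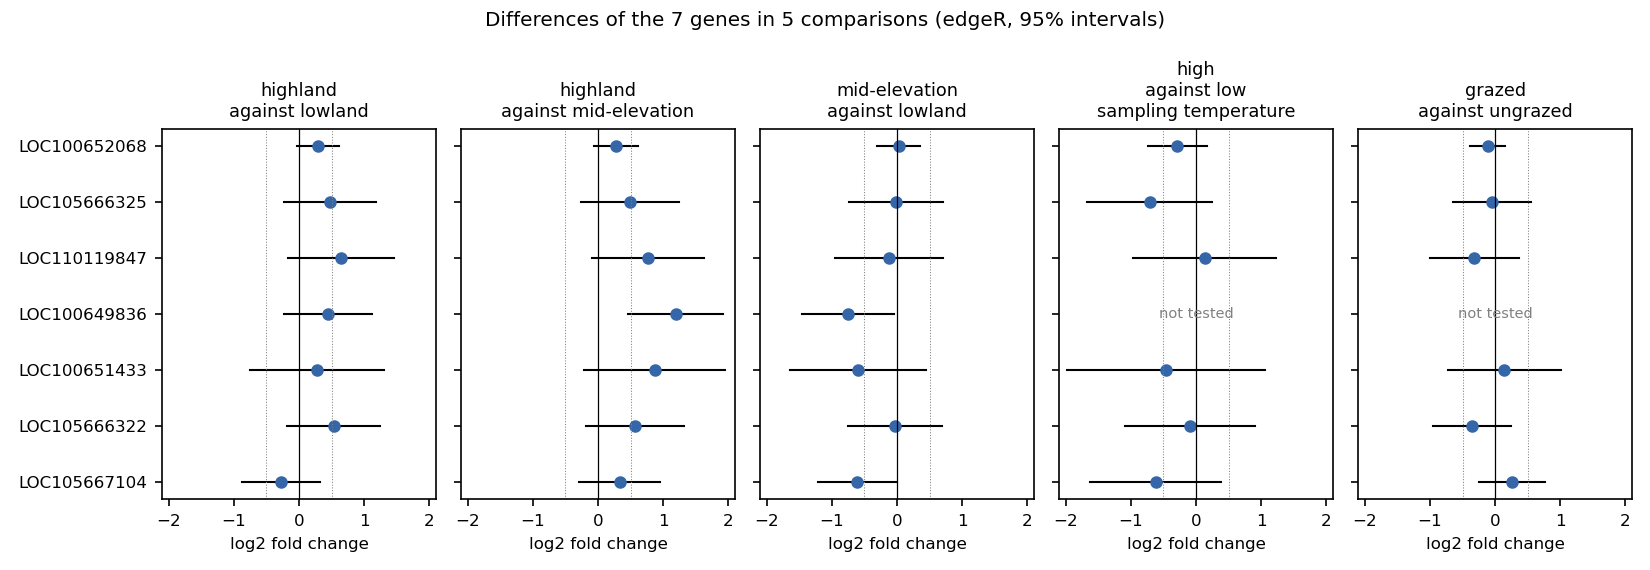
Log2 fold change of each gene (points) with its 95% interval (lines) in 5 comparisons, from edgeR. Dotted lines mark the threshold of 0.5. All but 2 intervals include 0, and the exceptions both belong to LOC100649836, in its comparisons of highland with mid-elevation bees (adjusted p = 0.114) and of mid-elevation with lowland bees (adjusted p = 0.292).

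Sampling temperature was compared within the lowland. The summed gut-type genes had a median of 16900 CPM in the high class and 1.56 CPM in the low class. Their part in the differences was not tested beyond a covariate. With that covariate 0 of 9305 genes tested were called, so that the lack of calls is not particular to the members. Of the 6 members that passed the filter on low counts there (LOC100649836 did not), none was called by edgeR, whereas 4.06% of all genes were, and none had an unadjusted p under 0.05. LOC105666325 had a log2 fold change of -0.71 (SE 0.474, edgeR adjusted p = 0.351), LOC105667104 -0.62 (SE 0.494, edgeR adjusted p = 0.445), LOC100651433 -0.46, LOC100652068 -0.29, LOC105666322 -0.09 and LOC110119847 0.13. Thus 5 of 6 lay below 0, with a median of -0.37 against 0.00 over all genes tested. These signs were not stable. Without site Wmb1, 3 of the 6 changed sign (LOC105667104 0.49, LOC105666325 0.28, LOC100651433 0.24), and on means of log2 CPM per site LOC100651433 was 0.68 and LOC105666322 0.14 higher in the high class. The intervals were wide, from -1.98 to 1.06 for LOC100651433.

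For LOC105667104 the tools differed. It had 107.9, 202.6 and 2950 CPM (lowest, median and highest) in bees caught at high temperature, and 92.3, 393.2 and 2710 CPM in bees caught at low temperature. DESeq2 with a fold-change prior called it lower at high temperature (log2 fold change -1.04, DESeq2 adjusted p = 0.0066). That run had replaced the count of bee 5 of site H2, the highest of all bees and a high-temperature bee, as an outlier. With the count kept, DESeq2 gave -0.43 (adjusted p = 0.393). The name of this gene was known only from the study's list of genes regulated by sampling temperature, so that this comparison is not independent of how the gene came to be included. With a muscle score as covariate, edgeR gave 0.00 for it in place of -0.62. That score had r = 0.90 with this gene over 81 bees, so that the covariate takes out the gene's own differences too. Most names of its genes came from the study's tables of regulated genes. The summed muscle genes had a median of 3269 CPM in the high class and 4908 CPM in the low class. The part of muscle in the difference was not tested.

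Over sites, the 4 high and 3 low units of site and class gave exact permutation p between 0.229 and 0.8, and the smallest p this design allows is 0.0571. Site T4 alone was sampled in both classes, and the test took its 2 units, of 2 and 3 bees, as independent and equal in weight to the rest. There LOC100652068 had 3304 and 4614 CPM in the 2 high-temperature bees, against 6288, 6352 and 11047 CPM in the 3 low-temperature bees. LOC110119847 ran the other way at that site, with 1.13 and 3.20 CPM in the high-temperature bees, against 0.668, 0.731 and 1.02 CPM in the low-temperature bees, and so did LOC105666322 with 19.1 and 60.6 CPM against 14.8, 17.6 and 17.7 CPM. The classes did not overlap in these 3 genes, but 2 against 3 bees cannot go below an exact p of 0.2. In the other members the classes overlapped at that site. The share of all genes without overlap there is not given, so the 3 genes are a description and not a result about the family.

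With grazing no member was called, against 0.181% of all genes. The 6 members tested had log2 fold changes between -0.36 for LOC105666322 (SE 0.301, edgeR adjusted p = 0.632) and 0.27 for LOC105667104 (SE 0.255, edgeR adjusted p = 0.684), none had an unadjusted p under 0.05 and DESeq2 called none. Without site H6, 4 of the 6 changed sign, and with belt as covariate 3 of the 6 did. On site means LOC105666322 was 0.07 higher in grazed sites. The exact permutation p of 9 grazed against 7 ungrazed sites lay between 0.141 and 0.901.

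Sites of the same belt were then compared with each other. Lowland and highland sites also differed in grazing, and lowland sites in sampling temperature class. The test includes these differences, and their part was not tested. In the edgeR test over all contrasts between sites within belts, 5 of 7 members passed an adjusted p of 0.05, against 18.8% of all genes tested. They were LOC110119847 (adjusted p = 0.00917), LOC105666325 (0.0134), LOC105666322 (0.0278), LOC100649836 (0.0388) and LOC105667104 (0.0481), and those that did not pass were LOC100651433 (0.108) and LOC100652068 (0.320). On log2 CPM with limma, 0 of 7 passed, with adjusted p from 0.0844 to 0.432, against 11.3% of all genes. With the gut-type score as a covariate in edgeR 3 members passed, against 11.2% of all genes. With the muscle score 5 passed, against 22.8% of all genes, LOC100651433 among them (adjusted p = 0.0444) and LOC105667104 not (adjusted p = 0.453). LOC105667104 itself had r = 0.90 with that score. Leaving out 1 site at a time gave between 1 and 5 members, with 1 when Wma6 was left out (12.8% of all genes), 2 without T3 (8.27%) and 3 without each of H6 (20.5%), T5 (13.8%) and Wmb3 (18.5%).

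The share of the spread in log2 CPM that lay between sites (intraclass correlation) was 0.0843 to 0.193 for the 7 genes. The median over all genes tested was 0.109, so that members fell on both sides of it, between the 40.6th and the 77.5th percentile. In site means, LOC100651433 was highest at highland site Wmb4 (mean log2 CPM 6.36, SD 0.665 over bees), where its 5 bees had 50.5, 66.5, 78.5, 80.1 and 174.3 CPM, and lowest at lowland site T3 (mean 2.53, SD 0.785), where the bees had 3.04, 3.21, 8.05, 8.36 and 9.21 CPM. The bees of these sites did not overlap, but the sites were picked as the extremes of 16. Site H6 had the highest mean of LOC100652068, LOC105666325, LOC110119847 and LOC105666322.

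Single bees were high in several members at once. When the 8 highest bees of each gene were listed, bee 4 of site H5 was on the lists of 5 genes, 5 further bees were on 4 lists each, and 56 of 81 bees were on none. Bee 4 of site H5 had 18030 CPM of LOC100652068, 3288 CPM of LOC105666325, 187.7 CPM of LOC105666322 and 1200 CPM of LOC105667104, with 17855975 counts in all, near the low end of depth. Bee 8 of site H6, with 26786495 counts, had the highest LOC105666322 (663.4 CPM) and LOC110119847 (48.5 CPM), with 974.5 CPM of LOC105666325 and 201.7 CPM of LOC105667104. Both bees were among the 8 highest for LOC105666325 and LOC105666322.

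The correlation between members over the 81 bees was positive within the cluster for every pair. Pearson r of log2 CPM ranged from 0.37 (LOC105666325 with LOC100651433) to 0.77 (LOC110119847 with LOC105666322) over the 10 pairs, with a median of 0.48, and each had a permutation p below 0.05 after adjustment over all 21 pairs. For LOC110119847 with LOC105666322, Spearman rho was 0.72, r was 0.70 without the 2 bees farthest from the median of LOC110119847, and both permutation p were 1e-05, the smallest that 100000 resamples can give (adjusted p = 4.2e-05 for r and 5.25e-05 for rho). Centred on site means, r within the cluster remained between 0.36 and 0.75. The pair farthest apart in the cluster, LOC105666325 with LOC105666322, had r = 0.49 (rho 0.32, permutation p = 2e-05 and 0.00367, adjusted p = 6e-05 and 0.00701, r = 0.44 without the 2 farthest bees).

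The part of shared reads in these values was not tested. LOC100651433, which had whole counts in all bees, had r = 0.61 with LOC110119847 (rho 0.62, both permutation p = 1e-05, adjusted p = 4.2e-05 and 5.25e-05, r = 0.60 without the 2 farthest bees) and 0.47 with LOC105666322 (rho 0.43, permutation p = 1e-05 and 9e-05, adjusted p = 4.2e-05 and 0.00027, r = 0.45 without the 2 farthest bees). Of the genes just outside the cluster, LOC100651552, annotated as thyroid receptor-interacting protein 11, had r = -0.15 with its neighbour LOC105666325, and LOC100651313 had r = 0.24 with LOC105666322, given as descriptions. Away from the cluster, LOC100652068 had r = 0.58 and 0.33 with its neighbours LOC100651710 and LOC100651828, which are not of the family. LOC105667104 had r = 0.22 and -0.19 with its neighbours LOC100631058 and LOC100643968.

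**Figure D3:**
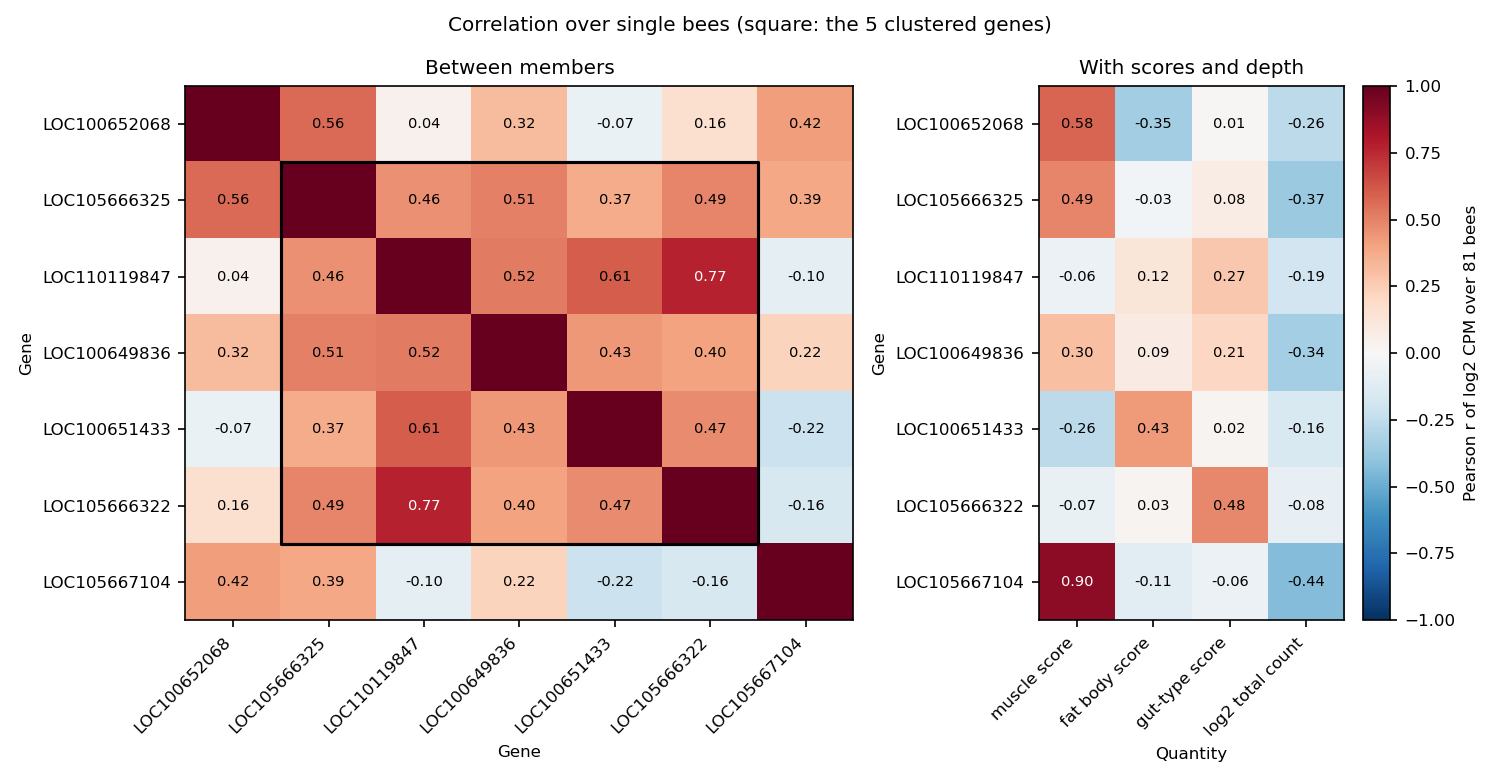
Pearson r of log2 CPM over 81 bees between the 7 genes (left, the square marks the 5 clustered genes) and of each gene with 3 tissue scores and the log2 total count of a bee (right). All 10 pairs inside the square lie between 0.37 and 0.77, and LOC105667104 stands out by r = 0.90 with the muscle score.

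Outside the cluster the members split. LOC105667104 had r between -0.22 and 0.42 with the other 6, and with LOC100651433 (-0.22), LOC105666322 (-0.16) and LOC110119847 (-0.10) its values were below 0, at adjusted permutation p of 0.0692, 0.176 and 0.427. LOC100652068 had r = 0.56 with LOC105666325 (rho 0.54, both permutation p = 1e-05, adjusted p = 4.2e-05 and 5.25e-05, r = 0.53 without the 2 farthest bees) and 0.42 with LOC105667104 (rho 0.41, both permutation p = 0.00011, adjusted p = 0.000231 and 0.000289, r = 0.40 without the 2 farthest bees). Its r with the other 4 lay between -0.07 and 0.32. Over all 21 pairs, 17 had r above 0 and 14 passed an adjusted permutation p of 0.05. Those that passed were 10 of 10 pairs in the cluster and 4 of 11 others. Members were correlated with many other genes as well. Over 9474 genes, the median absolute r ran from 0.117 for LOC105666322 to 0.268 for LOC105667104. Its 99th percentile ran from 0.426 for LOC110119847 to 0.761 for LOC105667104. Pairs that passed were not all close in rank. LOC100651433 stood at rank 722 for LOC105666325, and LOC105667104 at rank 893 for LOC100652068.

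LOC105667104 varied with muscle genes, most of whose names came from the study's tables of regulated genes. Its r with the muscle score, the mean centred log2 CPM of the 11 muscle genes that passed the filter, was 0.90 (rho 0.84, both permutation p = 1e-05, the smallest possible, adjusted p = 9.33e-05 over 28 relations of members with scores and depth). It was 0.86 without the 2 bees farthest from the median score and 0.89 after centring on site means, and r was above 0 with 10 of the 11 single genes. The bees with the highest and the second-highest muscle sum, bee 5 of site Wmb1 with 42791 CPM and bee 5 of site H2 with 34207 CPM, were also the 2 highest in LOC105667104. In bulk tissue, fewer cells of a type and less RNA per cell cannot be told apart. These bees had 15700759 and 16296367 counts, at the low end of depth, and r of LOC105667104 with log2 total count was -0.44 (rho -0.24, adjusted permutation p = 0.000327 and 0.0905). It was -0.37 for LOC105666325 (rho -0.18, adjusted permutation p = 0.00292 and 0.21) and -0.34 for LOC100649836 (rho -0.29, 0.00656 and 0.0335). For LOC100652068 it was -0.26 (rho -0.17, 0.0422 and 0.228). In the remaining members it ran from -0.19 for LOC110119847 to -0.08 for LOC105666322, at adjusted permutation p of 0.156 and above.

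The same score related to LOC100652068 with r = 0.58 (rho 0.64, both adjusted permutation p = 9.33e-05, r = 0.56 without the 2 farthest bees) and to LOC105666325 with r = 0.49 (rho 0.40, adjusted permutation p = 9.33e-05 and 0.0014, r = 0.38 without the 2 farthest bees). LOC100649836 had r = 0.30 with the muscle score (rho 0.19, adjusted permutation p = 0.0174 and 0.189, r = 0.19 without the 2 farthest bees). In LOC110119847 and LOC105666322 r with this score was -0.06 and -0.07, at adjusted permutation p of 0.725 and 0.667. LOC100651433 had r = -0.26 with it (rho -0.33, adjusted permutation p = 0.0422 and 0.00988, r = -0.29 without the 2 farthest bees). It had r = 0.43 with the fat body score (rho 0.45, adjusted permutation p = 0.000327 and 0.00014, r = 0.37 without the 2 farthest bees). LOC100652068 had r = -0.35 with the fat body score (rho -0.33, adjusted permutation p = 0.00483 and 0.00988, r = -0.41 without the 2 farthest bees). LOC105666322 had r = 0.48 with the gut-type score (rho 0.49, adjusted permutation p = 0.00014 and 9.33e-05, r = 0.52 without the 2 farthest bees). LOC110119847 had r = 0.27 with that score (rho 0.23, adjusted permutation p = 0.0379 and 0.117, r = 0.31 without the 2 farthest bees). Gut-type transcripts thus moved with LOC105666322 and, less closely, with LOC110119847, and their part was not tested.

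**Figure D4:**
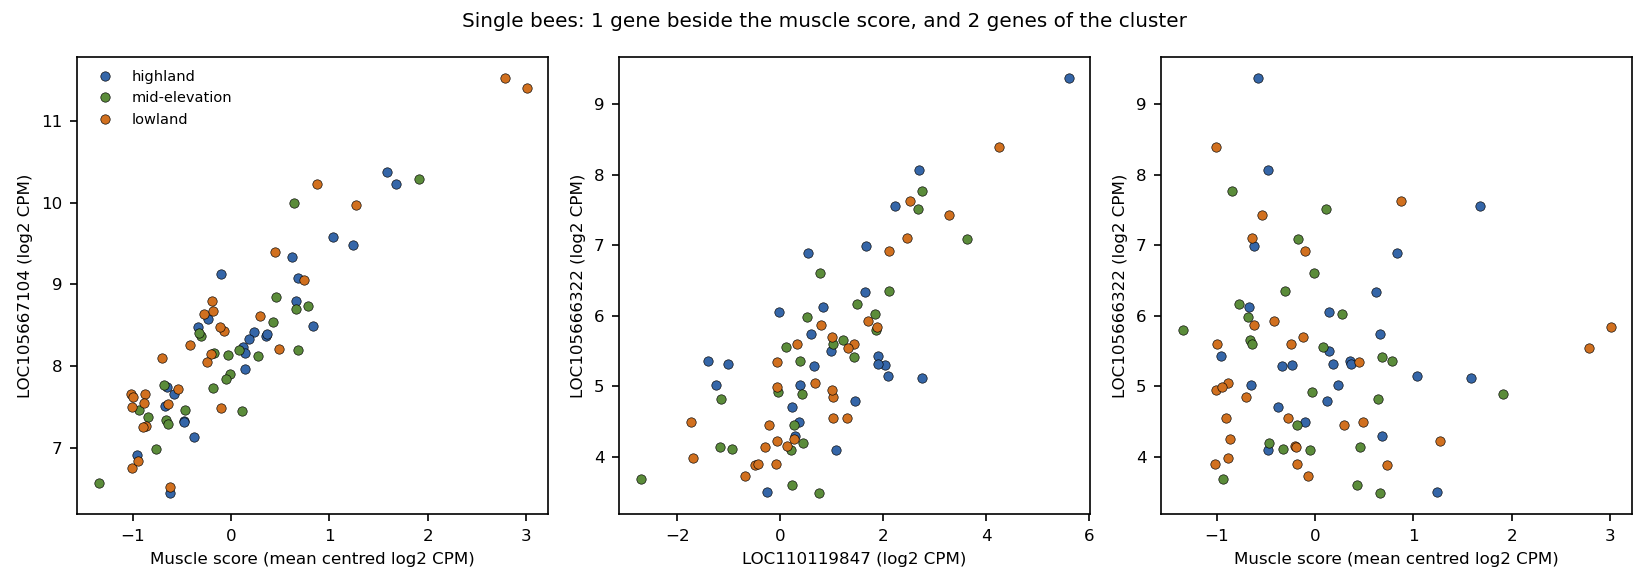
Single bees, coloured by belt, with LOC105667104 against the muscle score (left, r = 0.90), LOC105666322 against LOC110119847 (centre, r = 0.77) and LOC105666322 against the muscle score (right, r = -0.07), all on log2 scales. The bees of the 3 belts lie within the same clouds.

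Ranked over all 9474 other genes, the closest in pattern to LOC105667104 was LOC105666555, muscle-specific protein 20 (r = 0.91 over 81 bees), and LOC100646044 (0.90) was also among the 3 closest. For LOC110119847 the 2 closest genes of the whole table were cluster members, LOC105666322 at rank 1 and LOC100651433 at rank 2, and the closest of the other genes was LOC100642940 (0.56). LOC105666322 in turn had LOC110119847 at rank 1, LOC100642940 at rank 2 (0.71) and at rank 3 LOC100645002, dnaJ protein homolog 1 (0.68), a co-chaperone of Hsp70. LOC100651433 was closest to LOC100642770 (0.67), LOC105666325 to LOC100649276 (0.71) and LOC100652068 to LOC100645015 (0.78), and the remaining genes that the ranking named had r between 0.52 and 0.76.

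The other chaperones of the table were followed through a list of 15 genes found by name. Within it, LOC105666322 was related to dnaJ protein homolog 1 (rho 0.58) and to LOC100645819, heat shock protein 83 (the insect Hsp90), with r = 0.59 (rho 0.53), at an adjusted permutation p of 0.000263 for each over 105 relations and r of 0.61 and 0.59 without the 2 farthest bees. LOC110119847 had r = 0.50 with dnaJ protein homolog 1 (rho 0.41) and 0.46 with heat shock protein 83 (rho 0.46), at adjusted permutation p of 0.000263 and 0.00042, and r of 0.41 and 0.47 without the 2 farthest bees. LOC105666325 had r = 0.40 and 0.41 with the same genes (adjusted permutation p = 0.00147 and 0.0012). Its highest values were with prefoldin subunit 3 (0.441) and the 10 kDa mitochondrial heat shock protein (0.436), at adjusted permutation p of 0.00063 and 0.000955. LOC105666322 also passed with C1GALT1-specific chaperone 1 (0.439) and the 10 kDa protein (0.391), at adjusted permutation p of 0.00105 and 0.00204. LOC100652068 had 0.37 with dnaJ protein homolog 1 (adjusted permutation p = 0.00353). LOC100651433 had r = 0.44 and 0.39 with heat shock 70 kDa protein cognates 5 (LOC100644048) and 4 (LOC100650203), at adjusted permutation p of 0.000583 and 0.0019. LOC100644048 had a median of 619.3 CPM, but LOC100650203 only 0.861 CPM, with a range of 0.223 to 43.6 CPM. LOC105667104 and LOC100652068 reached their highest values in this list with LOC100646096, probable prefoldin subunit 2, at r = 0.47 and 0.53. Both were also negatively related to LOC105665817, dnaJ homolog subfamily C member 3, with r = -0.45 for LOC105667104 (adjusted permutation p = 0.000583) and -0.37 for LOC100652068 (adjusted permutation p = 0.0028). LOC105667104 had r = -0.46 with LOC100646890, the iron-sulfur cluster co-chaperone HscB (adjusted permutation p = 0.00045). By Pearson r LOC100649836 passed with none of the 15, and by rho with LOC100650203, heat shock 70 kDa protein cognate 4 (rho 0.32, adjusted permutation p = 0.0216). Both genes of that pair were low in level. Positive relations that passed by r numbered 5 for LOC105666325 and 4 each for LOC100652068 and LOC105666322. They numbered 3 for LOC105667104 and 2 each for LOC110119847 and LOC100651433. Negative ones numbered 2 for LOC105667104 and 1 for LOC100652068. The share of all genes that would pass is not given, so these counts do not set chaperones apart from other genes. Over 9474 genes the median absolute r was 0.222 for LOC100652068 and 0.268 for LOC105667104.

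Between belts and with grazing, none of the 15 chaperone genes was called, as in the family. At high sampling temperature 3 of 15 were called higher than at low and none lower, against 288 higher and 90 lower of 9305 genes tested (4.06% in all). They were LOC100651585, C1GALT1-specific chaperone 1 (log2 fold change 1.11, SE 0.319, edgeR adjusted p = 0.0376), LOC105665817, dnaJ homolog subfamily C member 3 (0.68, SE 0.182, edgeR adjusted p = 0.0292), and LOC100646003, the 10 kDa mitochondrial heat shock protein (0.63, SE 0.169, edgeR adjusted p = 0.0289). All 3 were known by name from the study's tables of regulated genes only, so that their calls are not independent of the list. With the gut-type score as a covariate, and with limma-voom and site as a random block, 0 of all genes were called for sampling temperature, these 3 included. The median log2 fold change of the 15 was -0.01.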

How the data were processed

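RNA of thorax and abdomen of 81 workers was sequenced by the authors as single 75-nt reads from stranded poly-A libraries. Per the labels and methods they trimmed reads with Cutadapt 2.5, aligned them with STAR 2.7.2b to the genome of the related B. terrestris (Bter_1.0) and counted them per gene with featureCounts 1.6.4 on the sense strand. The deposited values are estimated counts with no normalization, because the authors counted reads with several positions or genes as fractions, and 28.5% of values are not whole. Such reads can belong to another member of the family. Belts came from the altitude label. Sampling temperature and grazing came from the study's sample tables, since the labels used here lack them.

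Counts were rounded, filtered with filterByExpr, scaled by TMM and tested with the quasi-likelihood test of edgeR 4.0.16 in R 4.3.3. P-values were adjusted (Benjamini-Hochberg) over all genes tested, 9475 for belts and sites, 9305 for temperature and 9385 for grazing. Standard errors are the log2 fold change over the square root of F. CPM used TMM-scaled library sizes, and log2 CPM a prior count of 2. Site means were compared by exact two-sided permutation, and correlations by 100000 permutations. Each bee counted as independent in edgeR, although limma 3.58.1 estimated a correlation of 0.105 to 0.125 between bees of a site. DESeq2 1.42.0, other scaling, filters, covariates, blocks and single sites left out served as alternatives. The edgeR script was tested on simulated data. Precision follows the counts, and genes of few counts per bee have wide errors. Nothing says that bees of 1 site came from separate colonies, so p-values over bees may be too small.

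Members, gene lists, tests and the rule for named genes were chosen with earlier results of these data known. The rule names all members, called chaperones (up to 5 per comparison) and the 3 genes most like each member with a mean of at least 1 CPM, of which 1 gene is not reported here. Gene names came from the study's tables and cover 1777 of 10581 genes, 6 of the 15 chaperone and 9 of the 12 muscle names from tables of regulated genes only. Columns of the authors' comparisons were not used. Sequences of the members were not used here.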

Additional observations from a re-analysis of the deposited data

Results flagged for a closer look

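Within the 15 sites of at least 5 bees, 105 sets of bees (7 genes by 15 sites) were checked for a bee far from the others of its site on the log2 scale, and 7 were found where about 5.25 would arise by chance (1 in 20). Bee 5 of site H2 had 2950 CPM of LOC105667104, against 180.3 to 203.2 CPM in the other 4 bees, and DESeq2 called the gene for sampling temperature only when this count was replaced. Bee 1 of site Wma6 had 542.0 CPM of the same gene, against 285.9 to 342.9 CPM. For LOC105666322, bee 4 of site Wma1 had 335.8 CPM, against 23.2 to 48.5 CPM, and bee 2 of site T4 had 60.6 CPM, against 14.8 to 19.1 CPM. For LOC110119847, bee 8 of site H6 had 48.5 CPM, against 0.901 to 6.65 CPM in the other 8 bees, and bee 5 of site Wmb3 had 0.0751 CPM, against 1.08 to 1.28 CPM. Bee 5 of site H5 had 2.90 CPM of LOC100651433, against 32.1 to 64.6 CPM.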

How the results depend on the processing

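No member was called between highland and lowland, between mid-elevation and lowland or with grazing under any alternative run. Between highland and mid-elevation, 1 member was called with grazing as covariate, and leaving out single sites gave 0 to 1. For sampling temperature, 1 was called by DESeq2 with a fold-change prior and 0 when that run kept outlying counts. For sites within belts the 5 members became 3 with the gut-type score as covariate, stayed 5 with a muscle score and became 0 with limma on log2 CPM, and 1 to 5 when single sites were left out. Of the members' 35 differences between site values and belts, classes or grazing, 0 had an exact permutation p under 0.05 on site means and 1 on site medians (LOC105667104, highland against mid-elevation, difference 0.47, p = 0.0238). The count of correlated pairs was 14 by Pearson r, 16 by Spearman rho and 13 within sites. Of 777 recomputed log2 fold changes of single members, 83 changed sign, all of them below the threshold for a call, 45 of these when a site was left out. With bee number as a replicate block 0 members were called in each of the 5 comparisons, and 8 of 33 values changed sign. Bees of the same number deviated together with a mean r of 0.03, against -0.01 for other numbers, so that the number does not pair bees. The muscle score, the log2 CPM test for sites, the kept outlying counts, the site medians and the other correlation measures were added after seeing the data. Over all genes, leaving out single sites gave 2 to 248 calls between highland and lowland, 2 to 169 between highland and mid-elevation, 4 to 168 between mid-elevation and lowland, 51 to 684 for temperature, 7 to 47 with grazing and 782 to 2054 for sites. Other settings moved the calls by over 1.5 times as follows. Between highland and lowland, 65 became 129 without a filter, 98 with the block, 156 by adjusted p alone and 115 in DESeq2. Between highland and mid-elevation, 20 became 66 without a filter, 90 with the block, 102 with grazing, 32 by adjusted p alone and 40 in DESeq2. Between mid-elevation and lowland, 35 became 16 with the block, 60 with the gut-type score, 103 with grazing and 61 in DESeq2. For temperature, 378 became 208 with the block, 0 with the gut-type score, 1 with counts summed per site, 759 in DESeq2 and 678 with outlying counts kept. With grazing, 17 became 79 without a filter, 58 with belt, 30 with the muscle score and 48 in DESeq2. Limma-voom with site as a random block gave 0 in all 5, and summed counts 0 in the other 4. For sites, 1778 became 1064 with the gut-type score and 1068 with limma. LOC100649836 did not pass the filter for temperature and grazing, and its values under settings that could test it there are not compared. It is limited by depth, with a median count of 7.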
